A study of Sus scrofa with 8 samples.

Results

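The 10 genes described here encode hormones of the pancreatic islet and proteins of the secretory granule, namely INS, GCG, SST, CHGA, TTR, PCSK1, PCSK2, SCG5, CPE and SCGN. They were found by symbol in the table of counts per gene, after the rows of each gene had been summed, and are 10 of its 30282 genes. The samples were porcine pancreatic ductal organoids (PPDO), which grow from duct fragments of the pig pancreas. The bulk RNA-Seq data comprised 8 libraries from 4 PPDO lines, each grown for 7 days in both complete and differentiation medium, so that n = 4 lines per medium. Em was the single embryonic line, LPN the single late postnatal line, and EPN1 and EPN2 were both early postnatal.

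The pigs were of German landrace background, either wild type or with an eGFP transgene under an insulin promoter, and the labels do not say which line came from which. Complete medium held prostaglandin E2, WNT3a, R-spondin, noggin, FGF10, EGF and gastrin, and differentiation medium lacked all of them. Both media held the N2 and B27 supplements, the TGF-beta receptor inhibitor A83-01, the ROCK inhibitor Y-27632, nicotinamide and N-acetyl-L-cysteine. The titles separate control from treated cultures, whereas a treatment field of the labels names an endocrine induction medium for all 8. Because Em and LPN are 1 line each, stage and line cannot be told apart.

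Endocrine cells of the islet make a hormone as a longer precursor, pack it into dense-core granules and release it when calcium rises. Within the granule, prohormone convertases cut the precursor, a carboxypeptidase trims the cut ends, and granins such as chromogranin A help the cargo to condense. Duct cells normally make none of the islet hormones, although in the embryo endocrine cells arise from a duct-like epithelium.

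Library totals ranged from 40553593 to 47910657 counts, so that the 3 counts which a value of 0 allows corresponded to 0.0626 to 0.0740 CPM, the counts scaled by library total. All 12 markers of duct cells passed the expression filter, with KRT8 between 18207 and 237817 counts. Their summed level was 5932 to 11350 CPM for complete and 2244 to 13640 CPM for differentiation medium, lowest in EPN2. Among the acinar markers PNLIP, CPB1 and PTF1A were at 0 in every library, but CTRC had at least 5071 counts. Of 6 neural markers in the table none had over 9 counts. Medium was tested across 14475 genes with the quasi-likelihood test of edgeR, and 1009 genes passed a Benjamini-Hochberg adjusted p of 0.05, which is 6.97% of those tested. Of all genes tested 2.87% rose and 4.10% fell. With the line as a replicate block the number was 2884 genes, or 19.9%. In bulk RNA, fewer cells of a type and less RNA per cell cannot be told apart.

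Counts of the 10 genes were low. Of their 80 values, 41 were of 3 counts or fewer, and these are marked as such in the text and by a grey band in the plot of counts. All 10 genes had over 3 counts in the Em library grown in differentiation medium, against 6 in Em in complete medium. In the postnatal libraries the number was 4 or 5 in complete medium and 2 to 4 in differentiation medium. Em in differentiation medium had the highest CPM of the 8 libraries for 7 of the 10 genes. Among all 18709 genes with over 3 counts in some library, 13.7% were highest there. INS, TTR and PCSK2 exceeded 3 counts in that library alone, so the comparison is a description.

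**Figure D1:**
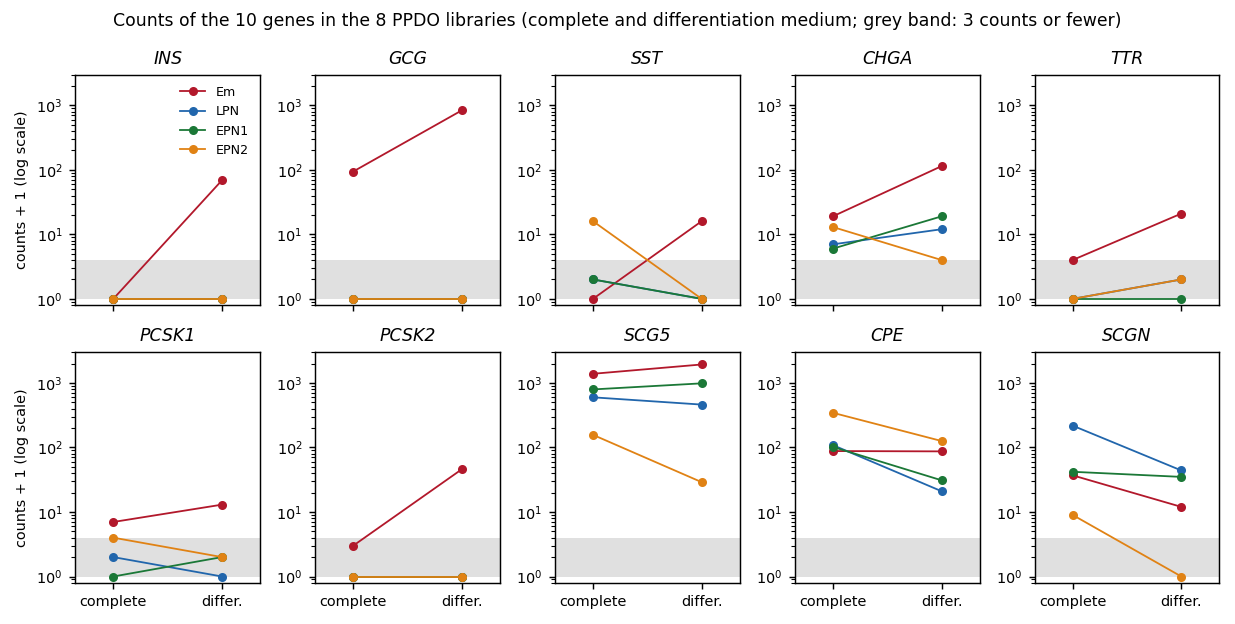
Counts of each gene plus 1 (log axis) in complete and differentiation medium, 1 panel per gene and 1 coloured line per PPDO line, with a grey band over values of 3 counts or fewer. INS, GCG, TTR, PCSK1 and PCSK2 leave the band in Em alone, whereas SCG5 and CPE lie above it in all 8 libraries.

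Of the 3 hormone genes, 2 were seen in the Em line alone. INS, which encodes insulin of the beta cell, lies on chromosome 2 at 1496842 to 1498052 in the RefSeq annotation of Sscrofa11.1. It had 68 counts in Em in differentiation medium and 0 in each of the other libraries. All 4 libraries in complete medium were thus at 3 counts or fewer, and so were LPN, EPN1 and EPN2 in differentiation medium. Within Em the level was at least 21.7-fold higher in differentiation medium, taking 3 counts as the floor per library.

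GCG, the precursor gene of glucagon in alpha cells and of GLP-1 in the gut, lies on chromosome 15 at 68800557 to 68810268. It had 93 counts in Em in complete medium and 835 in Em in differentiation medium. Both libraries of LPN, EPN1 and EPN2 were at 0. GCG was therefore seen in a single line, in both media, and was 8.59-fold higher in differentiation medium there, with a 95% counting interval of 6.93 to 10.8. Such intervals cover counting error only and say nothing about another culture of the same line.

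SST encodes somatostatin, the hormone of delta cells, and lies on chromosome 13 at 125337560 to 125338742. In complete medium it had 15 counts in EPN2, 1 in LPN, 1 in EPN1 and 0 in Em. In differentiation medium it had 15 counts in Em and 0 in LPN, EPN1 and EPN2. The 6 values other than those 15s were of 3 counts or fewer, and the line with the counts differed between the media. Within Em the level was at least 4.79-fold higher in differentiation medium, and within EPN2 it was at least 4.98-fold lower.

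Most other peptide hormones of islet and gut were at or near the limit of detection. Of 20 listed hormone genes 15 were in the table, 9 of them at 3 counts or fewer in all 8 libraries and 5 at 0 in all. IAPP, the amyloid peptide that beta cells release together with insulin, was at 0 in every library. PPY, the hormone of the islet PP cells, had 3 counts in LPN in complete medium and 0 elsewhere. GAST, the gastrin gene, had 7, 9, 5 and 1 counts in Em, LPN, EPN1 and EPN2 in complete medium and 21, 1, 9 and 2 in differentiation medium, and GHRL, the ghrelin gene, had 2 to 7 counts. A single hormone of the list passed the filter, the vasoactive peptide ADM, with 1668 to 12175 counts in complete and 647 to 2287 in differentiation medium. Its log2 fold change was -2.72 (SE 0.71) and its adjusted p in the edgeR fit was 0.0589.

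**Figure D2:**
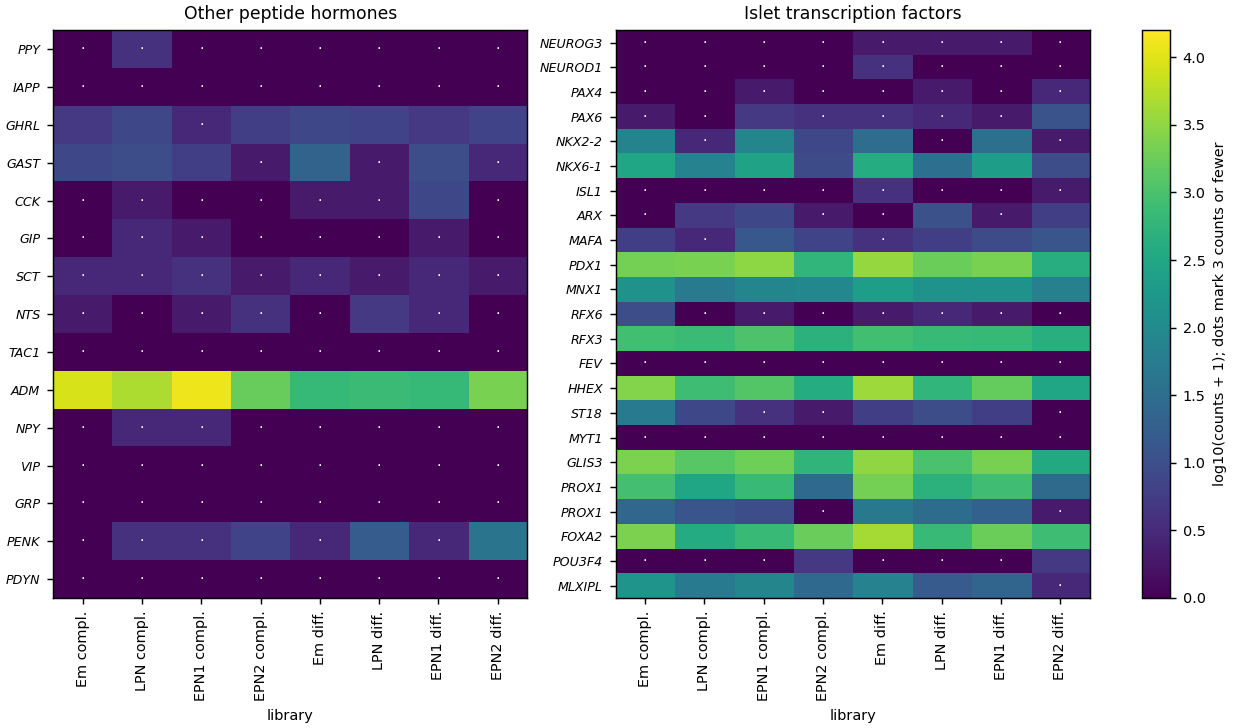
Counts of other peptide hormone genes (left) and islet transcription factor genes (right), as log10 of the count plus 1 by colour, in the 4 libraries of each medium, with dots on values of 3 counts or fewer. Most hormone rows are dark in every library and ADM is bright, and PDX1, RFX3, HHEX, GLIS3 and FOXA2 are bright in all 8 libraries while NEUROG3, NEUROD1 and ISL1 are dark.

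CHGA encodes chromogranin A, the granin used as a general marker of neuroendocrine cells, and lies on chromosome 7 at 114345542 to 114357799. In complete medium it had 18 counts in Em, 6 in LPN, 5 in EPN1 and 12 in EPN2. In differentiation medium it had 113 counts in Em, 11 in LPN, 18 in EPN1 and 3 in EPN2, the last being a value of 3 or fewer. The 2 media overlapped, and Em in differentiation medium stood above the other libraries, whose intervals each overlapped that of their neighbour in the order of CPM.

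CHGA was the most widespread of the genes that were highest in Em, after SCG5. Its ratio of differentiation to complete medium was 6.01 in Em (counting interval 3.64 to 10.5), 1.61 in LPN (0.547 to 5.31) and 3.71 in EPN1 (1.33 to 12.8). In EPN2 the ratio was 0.251, from 12 and 3 counts, with an interval of 0.0454 to 0.93. Em and EPN1 thus had more CHGA in differentiation medium beyond counting error and EPN2 had less. Mean levels were 0.232 ± 0.124 CPM (SD, n = 4, TMM scaled) for complete and 0.759 ± 1.06 CPM for differentiation medium. The log2 fold change was 1.70 (SE 1.00) with an edgeR adjusted p of 0.308, and it was 0.02 without Em in differentiation medium.

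PCSK1 and PCSK2 encode the prohormone convertases PC1/3 and PC2, the first prominent in the maturation of insulin and the second needed for glucagon. PCSK1 lies on chromosome 2 at 103004794 to 103050707 and PCSK2 on chromosome 17 at 25681424 to 25920690. PCSK1 had 6 counts in Em, 1 in LPN, 0 in EPN1 and 3 in EPN2 in complete medium, and 12, 0, 1 and 1 in the same order in differentiation medium. Only the Em values exceeded 3 counts, and their ratio of 1.91 had an interval of 0.665 to 6.22, so that a difference was not detectable at this depth. PCSK2 had 2 counts in Em in complete medium, 45 in Em in differentiation medium and 0 in all 6 postnatal libraries. Its ratio within Em was 21.5, with an interval of 5.63 to 183 because the lower value was of 3 counts or fewer.

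SCG5 encodes 7B2, a small chaperone that PC2 needs to become active. It lies on chromosome 1 at 136525920 to 136590021. In complete medium it had 1386 counts in Em, 598 in LPN, 793 in EPN1 and 156 in EPN2, and in differentiation medium 1933, 461, 985 and 28 in the same order. The media overlapped widely, whereas the lines kept 1 order in both media, with Em highest, then EPN1, LPN and EPN2. The 8 levels ran from 40.3 CPM in Em to 0.611 CPM in EPN2, both in differentiation medium, and no interval overlapped its neighbour in that order.

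SCG5 was therefore present in all 8 libraries, among them the 6 in which its partner PCSK2 was at 0. Differentiation medium gave a higher level in Em, with a ratio of 1.34 (1.25 to 1.43), and in EPN1, with 1.28 (1.16 to 1.41). The level was lower in LPN, with a ratio of 0.678 (0.599 to 0.767), and in EPN2, with 0.180 (0.116 to 0.271). EPN2 in differentiation medium, the library with the lowest SCG5, also had the lowest summed level of duct markers, and the part of that in the result was not tested. Means were 16.8 ± 11.0 CPM (SD, n = 4) for complete and 18.1 ± 17.0 CPM for differentiation medium. The log2 fold change was 0.11 (SE 1.01, edgeR adjusted p of 0.957), and it turned to -0.49 (SE 0.48, adjusted p of 0.489) with the line as a block.

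CPE encodes carboxypeptidase E, which removes basic residues from prohormones after the convertases have cut. It lies on chromosome 8 at 43568744 to 43695475. In complete medium it had 87 counts in Em, 108 in LPN, 101 in EPN1 and 344 in EPN2, and in differentiation medium 86, 20, 30 and 125 in the same order. EPN2 was highest in both media, Em was nearly level between them, and the other lines were lower in differentiation medium. The groups overlapped, since EPN2 in differentiation medium lay above 3 of the libraries in complete medium.

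Within lines the ratio for CPE was 0.946 in Em (0.694 to 1.29), 0.163 in LPN (0.0957 to 0.264), 0.306 in EPN1 (0.196 to 0.464) and 0.365 in EPN2 (0.295 to 0.449). All postnatal lines thus had less CPE in differentiation medium beyond counting error, and in Em no difference was detectable. Means were 3.68 ± 2.75 CPM (SD, n = 4) for complete and 1.45 ± 1.14 CPM for differentiation medium. The log2 fold change was -1.35 (SE 0.72) with an edgeR adjusted p of 0.260. Blocking by line gave -1.48 (SE 0.46) with an adjusted p of 0.0742 in edgeR, and -1.47 (SE 0.49) with an adjusted p of 0.0105 in DESeq2. Without EPN2 in complete medium the unblocked value was -0.68.

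SCGN encodes secretagogin, a calcium-binding EF-hand protein of islet and neuroendocrine cells that takes part in granule release. It lies on chromosome 7 at 20389156 to 20432985. In complete medium it had 36 counts in Em, 217 in LPN, 41 in EPN1 and 8 in EPN2. In differentiation medium it had 11 counts in Em, 43 in LPN, 34 in EPN1 and 0 in EPN2, the last being a value of 3 or fewer. LPN in complete medium was highest by far, the next 4 libraries in the order of CPM overlapped one another in their intervals, neighbour by neighbour, and EPN2 was lowest in each medium.

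All 4 lines had fewer SCGN counts in differentiation medium. The ratio was 0.292 in Em (0.134 to 0.587), 0.174 in LPN (0.123 to 0.243) and 0.854 in EPN1 (0.525 to 1.38), and in EPN2 the level was at least 2.66-fold lower. The difference was within counting error in EPN1 only. Means were 1.81 ± 2.34 CPM (SD, n = 4) for complete and 0.473 ± 0.429 CPM for differentiation medium. The log2 fold change was -1.92 (SE 1.29) with an edgeR adjusted p of 0.365, and it was -0.45 without LPN in complete medium. Blocking by line gave -1.85 (SE 0.64, adjusted p of 0.0930) in edgeR and -1.95 (SE 0.72, adjusted p of 0.0217) in DESeq2.

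Beside SCGN, other EF-hand genes of neuroendocrine cells were read. CALB1, the calbindin gene, did not pass the filter but had 0, 0, 0 and 1 counts in Em, LPN, EPN1 and EPN2 in complete medium and 151, 186, 396 and 0 in differentiation medium. Em, LPN and EPN1 thus had more CALB1 and fewer SCGN counts in differentiation medium. HPCAL1 had 429 to 2670 counts in all libraries, with a log2 change of -0.24 (SE 0.46, edgeR adjusted p of 0.773).

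TTR encodes transthyretin, a carrier of thyroid hormone and of retinol-binding protein that is made by liver and choroid plexus and also by alpha cells. It lies on chromosome 6 at 115496338 to 115503974. In complete medium it had 3 counts in Em and 0 in LPN, EPN1 and EPN2, and in differentiation medium 20 in Em, 1 in LPN, 0 in EPN1 and 1 in EPN2. Every value but the 20 in Em was thus of 3 counts or fewer, and the ratio within Em was 6.38 (1.89 to 33.5).

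Read beside TTR were 16 genes, namely other secreted proteins of the liver, its partner RBP4, and the retinol and thyroid hormone receptors STRA6, THRA and THRB. None of the 7 that passed the filter was called in the edgeR fit, where 6.97% of all genes were. With the line as a block 2 rose, SERPINA1 and THRB, beside 9.48% of all genes. SERPINA1, the alpha-1 antitrypsin gene, had 1055, 478, 1010 and 24 counts in Em, LPN, EPN1 and EPN2 in complete medium and 18834, 1695, 13187 and 29 in differentiation medium (a log2 change of 3.61, SE 1.63, edgeR adjusted p of 0.196, and 0.0492 in the blocked fit). Em and EPN1 thus held most of its counts. THRA had 2151 to 4078 counts in all libraries (a log2 change of 0.32, SE 0.19, adjusted p of 0.318), and THRB had a blocked adjusted p of 0.0145. TF, the transferrin gene, had 2 counts in Em in complete medium, 420 in Em in differentiation medium and at most 10 elsewhere, and AFP had 6 and 12 counts in Em and 0 in every postnatal library. Other genes of the list were lower in Em in differentiation medium. RBP4, the retinol carrier that TTR binds, had 4207, 13, 1318 and 33 counts in Em, LPN, EPN1 and EPN2 in complete medium and 459, 34, 81 and 9 in differentiation medium, and AHSG had 11 and 0 counts in Em. The list's summed level was 54.3 to 199 CPM for complete and 66.2 to 581 CPM for differentiation medium, highest in Em in each. In differentiation medium EPN1, where TTR was at 0, was nearly level with Em at 577 CPM. The part of these genes in the TTR result was not tested.

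Several of these genes were seen mainly or only in Em. CPE was instead highest in EPN2 and SCGN in LPN, and SST was split between Em and EPN2. INS, GCG, TTR, PCSK1 and PCSK2 had over 3 counts in Em only, which is 5 of the 10 genes, against 374 or 2.00% of the 18709 genes. Genes over 3 counts in a single other line numbered 425 (LPN), 314 (EPN1) and 322 (EPN2), and 0 of the 10 were among them in each case. INS, GCG, SST, CHGA, TTR and PCSK2 were at least 4-fold higher in Em in differentiation than in complete medium, 6 of the 10, beside 4.85% of the 16759 genes with over 3 counts in an Em library. INS, SST, TTR and PCSK2 entered that comparison only through Em in differentiation medium, where they were then counted as higher. The 10 genes were also chosen with earlier results of these data known. These shares are thus descriptions and do not test an excess in Em. With 1 line of this stage the values have no replicate check. Markers of other cell types did not share 1 direction in Em. Neural markers summed to 0.153 CPM for complete and 0.0209 CPM for differentiation medium, and acinar markers to 158 and 324 CPM. Stromal, endothelial and immune markers summed to 75.9 and 25.6 CPM, of which CD14 had 2414 and 228 counts, CD68 196 and 157, COL1A1 26 and 56 and COL3A1 1 and 244. COL3A1 also had 268 counts in EPN1 in differentiation medium, where INS and GCG were at 0. Their part in the result was not tested.

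**Figure D3:**
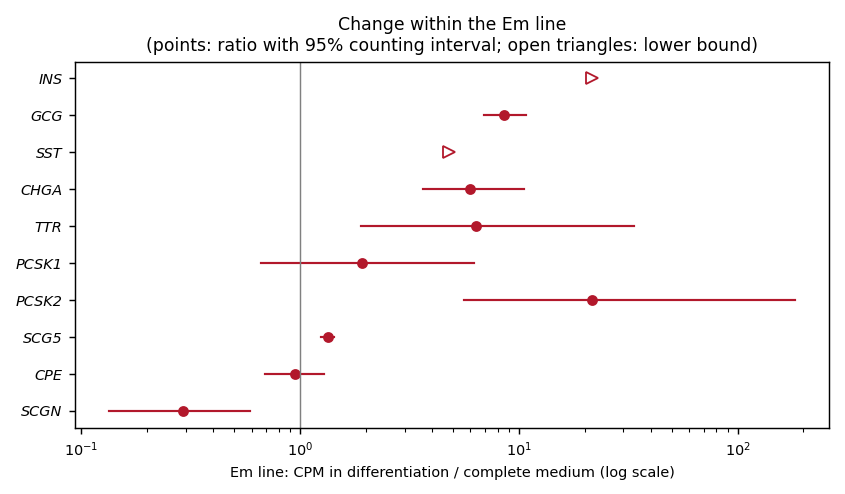
Ratio of CPM in differentiation to complete medium within the Em line (log axis), with 95% counting intervals, and with open triangles for lower bounds where complete medium was at 0. GCG, CHGA, TTR, PCSK2 and SCG5 have intervals above 1, PCSK1 and CPE span 1, and SCGN lies under it.

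Across the media none of the 10 genes that could be tested passed the threshold in the edgeR fits. Of the 4 that passed the filter (CHGA, SCG5, CPE and SCGN) 0 were called in the edgeR fit, where 6.97% of all genes were, and 0 had an unadjusted p under 0.05, where 27.3% of all genes did. Without the filter all 10 could be tested, and 0 were called, beside 2.05% of the genes in that fit, where INS had an adjusted p of 0.283. DESeq2 without a block called 0 beside 19.9% of genes, edgeR with the line as a block called 0 beside 19.9% of genes, and DESeq2 with the block called 2, CPE and SCGN, beside 37.3% of genes.

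**Figure D4:**
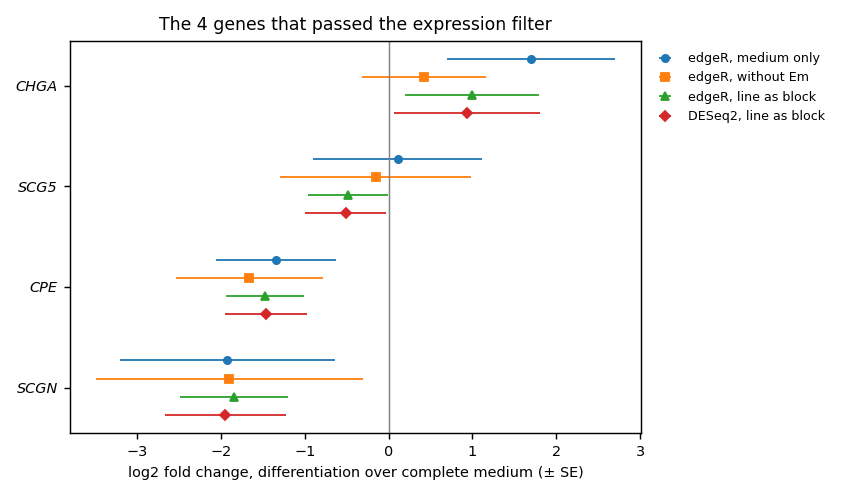
Log2 fold change of differentiation over complete medium for the 4 genes that passed the filter, with bars of 1 SE, in 4 fits distinguished by colour and symbol. CPE and SCGN lie under 0 in every fit, CHGA moves from 1.70 to 0.42 without the Em libraries, and SCG5 lies on either side of 0.

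The 4 tested genes varied more between lines than between media. On the scale of log2 of CPM plus 0.5, line accounted for 90.7% of the variance of SCG5 over the 8 libraries and medium for 1.90%. For CHGA the shares were 56.3% and 12.6%, for SCGN 68.4% and 19.3%, and for CPE 51.1% and 36.9%. The medians over all genes tested were 49.2% for line and 24.6% for medium. These shares are descriptions, and line has more terms than medium. Those of CHGA rest largely on Em in differentiation medium, the only library where it exceeded 0.5 CPM.

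The genes with the most similar pattern over the 8 libraries differed between the 4. By Pearson's r of log2 of TMM-scaled CPM plus 0.5, CHGA was closest to FLT4 (0.988), KCNJ5 (0.965) and ABCA4 (0.963). CHGA exceeded 0.5 CPM only in Em in differentiation medium (2.33 CPM), so its r rests largely on that library. SCG5 was closest to COL4A2 (0.989), SEPTIN9 (0.988) and GUCY1B1 (0.987), and CPE to ST8SIA5 (0.976), ARMC2 (0.959) and ROCK1 (0.954). SCGN was closest to MYO1F (0.961), RNF149 (0.960) and RINL (0.956). Each value is the highest of 14474 comparisons over 8 points that share lines and media. Among the 4 genes themselves the highest r was 0.57, between CHGA and SCG5, and the lowest was -0.43, between SCG5 and CPE.

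Other genes of the granule and of prohormone processing were read as well. Of 31 listed 29 were in the table and 22 were tested, and 0 rose and 2 fell, where 2.87% and 4.10% of all genes did. The median log2 fold change of the list was 0.02, beside 0.01 for all genes. PTPRN, the IA-2 autoantigen of the granule membrane, had 173, 67, 107 and 51 counts in Em, LPN, EPN1 and EPN2 in complete medium and 28, 10, 6 and 5 in differentiation medium. Its groups did not overlap, and it fell by 3.11 on the log2 scale (a log2 change of -3.11, SE 0.65, edgeR adjusted p of 0.0346). PCSK4, a convertase best known from germ cells, had 18 to 55 counts in complete and 3 to 6 in differentiation medium (a log2 change of -2.68, SE 0.53, adjusted p of 0.0308).

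Both genes were lower in differentiation medium in all 8 fits that left out 1 library, but the calls depended on single libraries, and the calls over all genes in those fits numbered 70 to 1199. Over the fits that left out 1 library, the adjusted p of PTPRN ran from 0.0301 to 0.106 and stayed under the threshold without EPN2 in complete or without Em in differentiation medium. That of PCSK4 ran from 0.0392 to 0.102 and stayed under it without Em in complete medium or without either library of EPN2. With the line as a block 4 genes of the 22 rose and 4 fell, PTPRN (adjusted p of 0.0124) and PCSK4 (0.0328) among the latter, beside 9.48% and 10.4% of all genes. The 2 genes with most counts were GNAS, the Gs alpha subunit, with a log2 change of -0.29 (SE 0.13, adjusted p of 0.197), and SORT1, a sorting receptor, with 0.26 (SE 0.17, adjusted p of 0.360). The granin gene CHGB, close kin of CHGA, had 37, 30, 43 and 42 counts in Em, LPN, EPN1 and EPN2 in complete medium and 117, 29, 73 and 42 in differentiation medium. PCSK1N, which encodes the PC1/3 inhibitor proSAAS, had 375 counts in Em in complete medium and 2215 in Em in differentiation medium, and 63 to 489 in the postnatal libraries. Both were thus highest in Em in differentiation medium, as was CHGA, but other granins were not (CHGB log2 fold change 0.68 and adjusted p of 0.361; PCSK1N 1.21 and 0.388). VGF had 33, 21, 47 and 46 counts in Em, LPN, EPN1 and EPN2 in complete medium and 17, 13, 7 and 41 in differentiation medium, so that it was lower in all 4 lines (edgeR adjusted p of 0.322). SCG2 was highest in EPN2 in complete medium, with 50 counts, and had 6 and 31 in Em, while SCG3 had 9 and 5 counts in Em and at most 34, in EPN2.

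**Figure D5:**
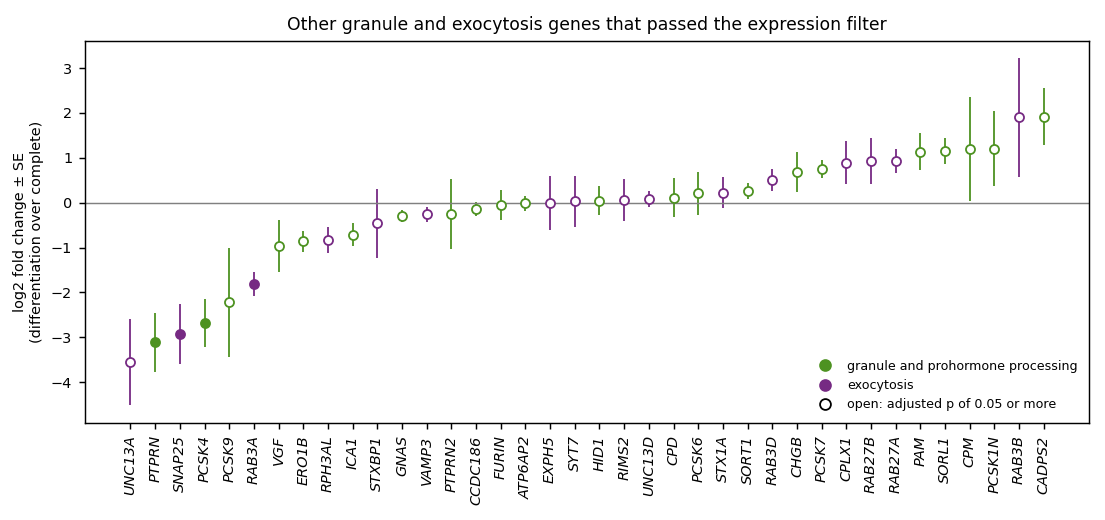
Log2 fold change of differentiation over complete medium with bars of 1 SE for the tested genes of the granule list (green) and the exocytosis list (purple), ordered by value, filled where the adjusted p was under 0.05. PTPRN, PCSK4, SNAP25 and RAB3A are filled, all under 0, and the other genes are open.

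Of 22 genes of granule docking and release 21 were in the table and 16 were tested. In the edgeR fit 0 were higher and 2 lower, where 2.87% and 4.10% of all genes were. Their median log2 fold change was 0.05. SNAP25, the neuronal and endocrine membrane SNARE, had 95, 123, 71 and 29 counts in Em, LPN, EPN1 and EPN2 in complete medium and 14, 21, 3 and 7 in differentiation medium. It fell without overlap of the media (a log2 change of -2.93, SE 0.67, edgeR adjusted p of 0.0423), and the call remained in the fit without EPN2 in complete medium but in none of the other fits that left out 1 library (0.0324 to 0.110). RAB3A, a small GTPase of regulated exocytosis, had 583 to 1178 counts in complete and 225 to 276 in differentiation medium (a log2 change of -1.81, SE 0.26, adjusted p of 0.0149). It was lower in 4 of 4 lines and lost its call only without EPN1 in differentiation medium (adjusted p of 0.0616). In the blocked fit 3 genes of the 16 rose and 3 fell, beside 9.48% and 10.4% of all genes. RAB3D and RAB27B, the members with most counts, were higher in 4 of 4 lines, with log2 fold changes of 0.51 (SE 0.24, adjusted p of 0.214) and 0.93 (SE 0.52, adjusted p of 0.286). In the blocked fit both rose, with edgeR adjusted p-values of 0.0265 and 0.0472.

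Genes of beta and alpha cell function were read as well, 9 of 16 of them tested. Of the 9, 0 were higher and 2 lower, beside 2.87% and 4.10% of all genes. Their median log2 fold change was -0.07. KCNJ11, the pore of the ATP-sensitive potassium channel, had 79 to 119 counts in complete and 27 to 50 in differentiation medium (a log2 change of -1.62, SE 0.34, edgeR adjusted p of 0.0342). Of the fits that left out 1 library it was called only in that without EPN2 in complete medium (0.0483 to 0.0984). LOXL4, a lysyl oxidase found in alpha cells but also elsewhere, had 1756 to 3723 counts in complete and 166 to 437 in differentiation medium (a log2 change of -3.46, SE 0.37, adjusted p of 0.00728) and was called in all 8 of those fits. In the blocked fit 0 of the 9 rose and 3 fell, where 10.4% of all genes fell. GIPR, the receptor of the incretin GIP, had a log2 change of -0.07 (SE 0.38, adjusted p of 0.924).

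Of 24 transcription factors of the endocrine lineage 22 were in the table. In the edgeR fit 0 of the 10 tested symbols were called, beside 6.97% of all genes. Their median log2 fold change was 0.04 over their gene IDs. In the blocked fit 0 rose and 1 fell, MLXIPL (adjusted p of 0.0352), where 10.4% of all genes fell. NEUROG3, which starts the endocrine programme, had at most 1 count in any library. NEUROD1 had 3 counts in Em in differentiation medium and 0 elsewhere, and ISL1 had 3 there, 1 in EPN2 in differentiation medium and 0 elsewhere. These 3 factors were thus at 3 counts or fewer in the library with 68 INS and 835 GCG counts, whereas other factors of the list were not. NKX6-1, which duct progenitors and beta cells use, had 306, 73, 265 and 8 counts in Em, LPN, EPN1 and EPN2 in complete medium and 399, 33, 224 and 9 in differentiation medium. MNX1 had 135 counts in Em in complete and 221 in Em in differentiation medium, its highest value, and NKX2-2 had 78 and 31. PDX1, which duct progenitors and beta cells share, had 410 to 3426 counts (a log2 change of -0.16, SE 0.65, adjusted p of 0.900), and GLIS3 had 354 to 3164 (0.04, SE 0.65, adjusted p of 0.954).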

How the data were processed

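The authors selected RNA by poly(A), sequenced it, and quantified reads per gene with salmon through an nf-core pipeline on a custom annotated pig genome. The deposited table holds estimated counts (expected counts) per gene, labelled raw, of which 78.6% of those above 0 were whole. Whether they had been scaled by gene length could not be read from the table. Extension and isoform rows were summed per gene and rounded, and no column was unused (0). The 8 rows of reporter transgenes, which name no pig gene, held 0.00142% of all counts and stayed out of library sizes and tests. The submitters' processing notes name Sscrofa 11.1 as pig build, and gene positions are those of RefSeq on that build, matched by symbol.

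Media were assigned by title and lines by column name, and replicate numbers of the labels were not matched to columns. Tests were run with edgeR 4.0.16 under R 4.3.3 (TMM, the default expression filter, the quasi-likelihood test with medium as the only term) and Benjamini-Hochberg adjustment at 0.05. DESeq2 1.42.0, a replicate block by line, and fits without single libraries were alternatives. The SE given for edgeR fits was worked back as the absolute log2 fold change over the square root of the F statistic. For DESeq2 it was the SE that the tool reports. The lines pair the libraries, since the same 4 lines were grown in both media, and after removing medium means the same-line correlation was 0.401 to 0.658 over 4 pairs, against -0.491 to 0.265 over 12 pairs of different lines. The scripts were tested on simulated data. Ratios within a line used CPM of library totals with exact 95% counting intervals. The p-values of the fits with medium only set its effect against the spread between these 4 lines, and leave the pairing unused. Those of the blocked fits set it against how the effect of medium varied from line to line.

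The 10 genes and the related lists were chosen with earlier results of these data known. Named genes are the 10, up to 5 called genes and the 2 with most counts per related list, and the 3 genes of most similar pattern. CHGB, VGF, SCG2, SCG3, PCSK1N, CALB1, RBP4, AHSG, THRB, COL1A1, COL3A1, NKX6-1, NKX2-2, MNX1, MLXIPL, TF, AFP, GAST, GHRL, IAPP, PPY, ADM, NEUROG3, NEUROD1 and ISL1 were named beside them after their values were seen. Of the lists not described further, 0 of 12 duct, 0 of 3 acinar, 0 of 2 EF-hand, 0 of 0 neural and 0 of 7 stromal, endothelial and immune genes tested were called. The share called over all genes tested was 6.97%.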

Additional observations from a re-analysis of the deposited data

Results flagged for a closer look

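In 11 of 17 groups of 4 libraries 1 library stood far from the other 3 by Dixon's ratio, and in 8 of the 11 it was Em. The 17 groups are those with a value over 3 counts, and where the other 3 libraries were at 0 the ratio is at its maximum by construction (INS, SST and PCSK2 in differentiation medium and GCG in both media). The usual chance rate of about 1 in 20 therefore does not apply, and the values are a description. In differentiation medium Em stood apart with 68 counts for INS, 835 for GCG, 15 for SST, 113 for CHGA, 20 for TTR, 12 for PCSK1 and 45 for PCSK2, and in complete medium with 93 for GCG. In complete medium EPN2 stood apart with 15 counts for SST and 344 for CPE, and LPN with 217 counts for SCGN. The 10 genes share these libraries, so the groups are not independent.

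Rows of reporter transgenes, which no comparison used, also held counts above the limit of 3. The eGFP row had its highest value, 67.5 counts, in EPN1 in complete medium, and its antisense row reached 7.85 in EPN2 in differentiation medium. The row of a membrane eGFP cassette reached 4579 counts in EPN1 in complete medium, and its antisense row 17.8 in EPN1 in differentiation medium. All reporter rows were at 0 in both Em libraries, the only ones with GCG.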

How the results depend on the processing

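With the filter 4 of the 10 genes could be tested. Of these 0 were called in every alternative except DESeq2 with the replicate block by line, where 2 passed. Without the filter all 10 were tested and 0 were called. Of the 64 alternative log2 fold changes of the 4 tested genes, 56 kept direction and side of the threshold. CPE (-1.47) and SCGN (-1.95) passed it in DESeq2 with the block. SCG5 reversed to -0.49 with the replicate block in edgeR, -0.51 with the block in DESeq2, -0.16 without both Em libraries, -0.23 without EPN2 in complete, -0.63 without Em in differentiation and -0.0016 without EPN1 in differentiation medium. Over the fits without 1 library it ran from -0.63 to 0.57. The cause was not tested. All 20 recomputed values of the 10 genes stayed close to the first ones. Totals without extension rows moved by no more than the SD of the gene's counts over the 8 libraries. Levels in Em in differentiation medium, when scaled by TMM, stayed within the counting interval of that library. Neither is a spread between replicates.

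Genes called numbered 1009, and 506 with no filter, 2884 in DESeq2, 2884 with the paired replicate block in edgeR, 5393 with that block in DESeq2, and 149 without both Em libraries. Leaving out 1 library gave 70 (without EPN1 in differentiation medium) to 1199. Without both EPN2 libraries, an alternative added after seeing the data, it was 1207. Of the 10 genes, 6 were too low for the test with the filter, and for these the depth limits what can be said.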

Other observations

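Other genes with over 3 counts in Em only, chosen after their values were seen, included NCAM1, a neural cell adhesion molecule also found on islet cells, with 123 counts in complete and 559 in differentiation medium. VIPR2, a receptor of the peptide VIP, had 30 and 376. Neither exceeded 2 counts in a postnatal library. Next by counts in Em in differentiation medium were single loci of the small RNAs U1 (329) and 5S rRNA (231), then MS4A12 (106) and HS3ST5 (91). Summed over all their loci, U1 had 195 to 671 counts and 5S rRNA 133 to 789 across the libraries. CDH11 (34) and COL6A3 (26) were further down.

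PCSK5, a convertase of the same family as PCSK1 and PCSK2, did not pass the filter and had 13, 2, 2 and 6 counts in Em, LPN, EPN1 and EPN2 in complete medium and 182, 7, 156 and 4 in differentiation medium. It was thus high in Em and EPN1 in differentiation medium only, and low in the 6 other libraries. ONECUT1, a transcription factor of the embryonic pancreas and its ducts, had 1288, 15, 74 and 3 counts in complete and 6806, 259, 841 and 5 in differentiation medium. In the edgeR fit its log2 change was 2.45 (SE 2.02, adjusted p of 0.463), and with the line as a replicate block the adjusted p was 0.0145.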
